A study of Mus musculus with 26 samples.

Results

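The 9 genes described here belong to MHC class II antigen presentation and costimulation in mouse lung: H2-Aa, H2-Ab1, H2-Eb1, H2-DMa, Cd74, Ciita, Ctss, Cd80 and Cd86. They were chosen by name, as 9 of the 12394 genes that the array measured with at least 1 probe set carrying a single gene symbol, and each gene was read from its probe set with the highest mean. Total RNA of the left lung was hybridized to Affymetrix mouse genome arrays, and the values are on the log2 scale. Male mice of 6 to 8 weeks were either wild type C57BL/6 (Il10+/+), or carried the targeted null allele Il10tm1Cgn in homozygous form, B6.129P2-Il10tm1Cgn/J (Il10-/-), so that interleukin 10 was missing from every cell and from birth. Both genotypes breathed filtered air or 0.3 ppm ozone (O3) for 24, 48 or 72 hr. The 8 groups held 4 arrays each in air (2 of 24 hr and 2 of 48 hr), 3 arrays at each O3 time in Il10+/+ mice, and 2, 3 and 3 arrays at 24, 48 and 72 hr of O3 in Il10-/- mice. No air arrays of 72 hr were analysed here, so the 72 hr comparison used air of the shorter times.

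MHC class II molecules present peptides from the endosomes to CD4+ T cells. H2-Aa pairs with H2-Ab1, and the product of H2-Eb1 is the beta chain of I-E, whose alpha chain is not made in mice of the H2b haplotype such as C57BL/6. Cd74, the invariant chain, fills the groove of new class II molecules, cathepsin S (Ctss) cuts it down to the CLIP fragment, and H2-DM, with H2-DMa as its alpha chain, exchanges CLIP for peptide. Ciita is the transactivator that class II genes depend on, and Cd80 and Cd86 are the ligands that antigen-presenting cells offer to Cd28 and Ctla4 on T cells. In the lung these genes are known from dendritic cells, B cells and macrophages, and at lower levels from epithelium. Interleukin 10 is known to lower class II and costimulatory molecules on antigen-presenting cells, and the study asked how its loss changes the response of the lung to O3.

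Of the 9 members, H2-Aa, H2-Ab1, H2-Eb1 and H2-DMa lie in the MHC on chromosome 17, Cd74 outside it, Ctss on chromosome 3, and Ciita, Cd80 and Cd86 on chromosome 16 (GRCm38.p6). RefSeq promoter windows, from 250 bases before to 50 after a transcription start, were found for 5 of the 9 members. The windows of 3 genes are printed because 2 of them, H2-Aa and H2-Eb1, belong to the group whose values moved together from array to array, and because Ctss was the 1 member called. Capitals in H2-Aa and H2-Eb1 mark GCAAC, the core of the X box that RFX proteins bind, and CTGATTGG, the Y box that NF-Y binds. In Ctss they mark GAAA, any 2 bases and GAAA again, the core of the interferon-stimulated response element (ISRE). They were searched on both strands of each window.
H2-Aa promoter, chr17:34287774-34288073, minus strand, GRCm38.p6: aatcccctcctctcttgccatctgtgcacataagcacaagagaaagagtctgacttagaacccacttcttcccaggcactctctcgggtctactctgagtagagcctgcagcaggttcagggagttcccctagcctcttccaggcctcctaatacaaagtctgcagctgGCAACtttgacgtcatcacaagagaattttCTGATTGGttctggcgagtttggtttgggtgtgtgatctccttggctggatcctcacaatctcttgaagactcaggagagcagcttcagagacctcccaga
H2-Eb1 promoter, chr17:34305617-34305916, plus strand, GRCm38.p6: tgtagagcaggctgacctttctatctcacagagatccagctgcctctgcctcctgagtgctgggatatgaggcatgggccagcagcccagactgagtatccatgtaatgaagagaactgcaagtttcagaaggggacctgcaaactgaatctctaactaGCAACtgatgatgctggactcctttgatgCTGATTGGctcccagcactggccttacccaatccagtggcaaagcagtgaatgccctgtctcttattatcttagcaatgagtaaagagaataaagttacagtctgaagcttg
Ctss promoter, chr3:95526536-95526835, plus strand, GRCm38.p6: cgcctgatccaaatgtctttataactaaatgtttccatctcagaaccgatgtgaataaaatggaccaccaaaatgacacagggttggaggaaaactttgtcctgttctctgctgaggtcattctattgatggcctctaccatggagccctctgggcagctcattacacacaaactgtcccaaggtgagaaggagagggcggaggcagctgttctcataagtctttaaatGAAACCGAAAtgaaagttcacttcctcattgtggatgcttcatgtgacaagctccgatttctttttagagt
In H2-Aa, 25 bases separated the X box core from the Y box, and in H2-Eb1 24 bases did. The Y box letters were present in 4.1% of 32851 promoter windows and the X box core in 35.2%, while an X box core at most 40 bases before a Y box on the same strand was present in 54 windows, 0.164%. The ISRE core, which lay between bases -21 and -12 of the Ctss start, was present in 3.44% of windows. Neither the Y box nor the ISRE letters were found in the windows of H2-DMa and Cd80, while both held the X box core on the opposite strand. The H2-DMa window with this match begins at 34122582, inside the gene's span of 34119693 to 34139101. That of Cd80 begins at 38458683, inside 38457430 to 38495958. The windows thus say nothing of promoters at other starts of these genes. A match describes the letters of the window and says nothing of binding in these lungs.

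On 3 arrays the values stood apart. The array labelled Il10-/- O3 24 hr replicate 2 was left out of all comparisons below. The study also left out 1 outlier of Il10-/- mice at 24 hr of O3, found by clustering, without a replicate number in its methods. On the array left out here, lung markers were far from those of the rest. Sftpc, the surfactant protein of alveolar type 2 cells, was at 6.36 there and between 14.29 and 14.48 on the 25 arrays used. The Il10 probe set ranged from 3.92 to 4.25 in Il10+/+ mice and from 6.29 to 7.71 in Il10-/- mice, except for 3.87 in the library labelled Il10-/- air 48 hr replicate 1. Which part of Il10 this probe set reads was not examined, so it checks no deletion, but this library went against its label and is named so below, and a call named below that was lost without it is marked as such. Finally, Il10-/- O3 24 hr replicate 3 held the lowest value of the 25 arrays for 7 members, and its group had 1 other array. The share of all genes lowest on that array was not counted. Array medians over all genes lay between 6.54 and 6.68.

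The values of all 9 members by array show the main features of the set. Of the 9 members, Ctss alone passed the test in any comparison between groups, in Il10-/- mice at 48 and 72 hr of O3. The 5 class II genes H2-Aa, H2-Ab1, H2-Eb1, H2-DMa and Cd74 did not pass in any comparison, and Ciita, Cd80 and Cd86 did not either.

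**Figure D1:**
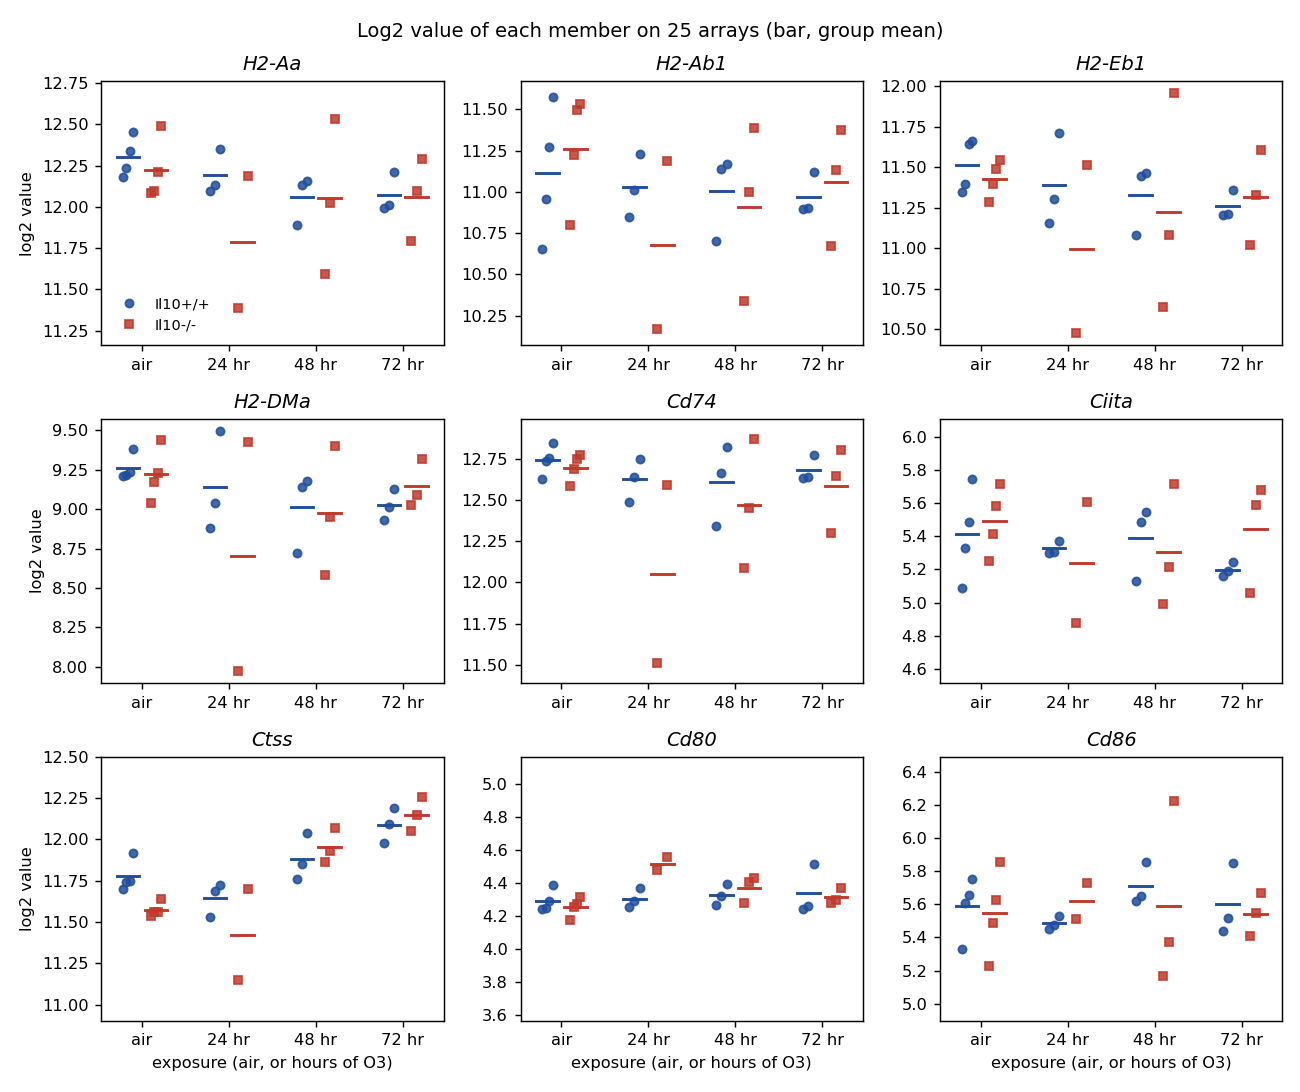
Log2 value of each of the 9 members (vertical axis) in air and after 24, 48 and 72 hr of O3 (horizontal axis) on the 25 arrays; blue circles are Il10+/+ and red squares Il10-/- arrays, and a bar is the mean of a group. Ctss is highest at 72 hr in both genotypes, between 12.05 and 12.25 in Il10-/- mice, while for the other members O3 and air arrays mostly overlap and Il10-/- arrays at 24 and 48 hr of O3 are widely spread.

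Ctss, the lysosomal protease that trims the invariant chain, was followed first. In Il10-/- mice in air the log2 values of Ctss (probe set 1448591_at) were 11.53, 11.56, 11.56 and 11.64. They were 11.15 and 11.70 at 24 hr of O3, 11.86, 11.93 and 12.07 at 48 hr, and 12.05, 12.15 and 12.25 at 72 hr. All 6 arrays of 48 and 72 hr therefore lay above all 4 air arrays, whereas the 24 hr arrays lay on either side of them. In Il10+/+ mice in air Ctss was at 11.70, 11.74, 11.75 and 11.92. It was at 11.53, 11.69 and 11.73 after 24 hr of O3, at 11.76, 11.85 and 12.04 after 48 hr, and at 11.98, 12.09 and 12.19 after 72 hr. In this genotype the 72 hr arrays alone were clear of the air arrays.

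At 72 hr of O3 Ctss rose in Il10-/- mice by 0.58 on the log2 scale (SE 0.107, 95% interval 0.354 to 0.799, n = 3 and 4; limma, adjusted p = 0.00198), which is 1.49-fold. It was 1 of 9 members called there, beside 5.87% of all genes. At 48 hr it rose by 0.38 (SE 0.107, 95% interval 0.158 to 0.603; limma, adjusted p = 0.0355), again as 1 of 9 members, beside 6.33% of all genes. The call at 48 hr did not hold when any of the 7 arrays compared was left out, nor against the 48 hr air arrays alone (limma, adjusted p = 0.165). Without the library labelled Il10-/- air 48 hr replicate 1 they came to 0.60 at 72 hr (limma, adjusted p = 0.0045) and 0.40 at 48 hr (limma, adjusted p = 0.0549). As a mean over the 3 times Ctss differed from air by 0.27 in Il10-/- mice (SE 0.0863; limma, adjusted p = 0.0608). It passed with each array centred on its median (limma, adjusted p = 0.0455), but not without the library labelled Il10-/- air 48 hr replicate 1 (0.29; limma, adjusted p = 0.103). Without Il10-/- O3 24 hr replicate 3, which left 1 array in that group, the difference was 0.36. In Il10+/+ mice the mean difference was 0.10 (limma, adjusted p = 0.634), and 0 of 9 members passed in either genotype, beside 7.55% and 3.66% of all genes.

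In Il10+/+ mice Ctss differed from air by 0.31 at 72 hr (SE 0.107, 95% interval 0.0902 to 0.535; limma, adjusted p = 0.133), and none of the 9 members passed, beside 3.15% of all genes. It passed when either of the remaining Il10-/- O3 24 hr arrays, or both, were left out of the fit (limma, adjusted p = 0.0353 without both). Arrays of Ctss that did not overlap with air and lay above it were seen at 72 hr in Il10+/+ mice, where 9.34% of all genes showed this, and at 48 and 72 hr in Il10-/- mice, where 8.58% and 11.5% did. At 24 hr Ctss differed from air by -0.13 in Il10+/+ mice (95% interval -0.350 to 0.0944) and by -0.15 in Il10-/- mice (95% interval -0.402 to 0.103), and none of the 9 members passed, beside 0.0484% and 2.09% of all genes.

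The response of Ctss to O3 was compared between genotypes. It was larger in Il10-/- mice by 0.27 at 48 hr (95% interval -0.0419 to 0.587) and by 0.26 at 72 hr (95% interval -0.0507 to 0.578), and neither passed the test (limma, unadjusted p = 0.0858 and 0.0958). In air the Il10-/- arrays were lower by 0.20 (95% interval -0.408 to 0.00346; limma, adjusted p = 0.715), while at 72 hr of O3 the genotypes differed by 0.06 (95% interval -0.176 to 0.299). All 4 Il10-/- air arrays lay below all 4 Il10+/+ air arrays, as they did for 3.05% of all genes. The highest of these 4, at 11.64, came from the library labelled Il10-/- air 48 hr replicate 1, and without it the difference was -0.22 (limma, adjusted p = 0.719). The O3 arrays of the 2 genotypes overlapped at each time.

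The plot of changes from air shows the members side by side with their 95% intervals.

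**Figure D2:**
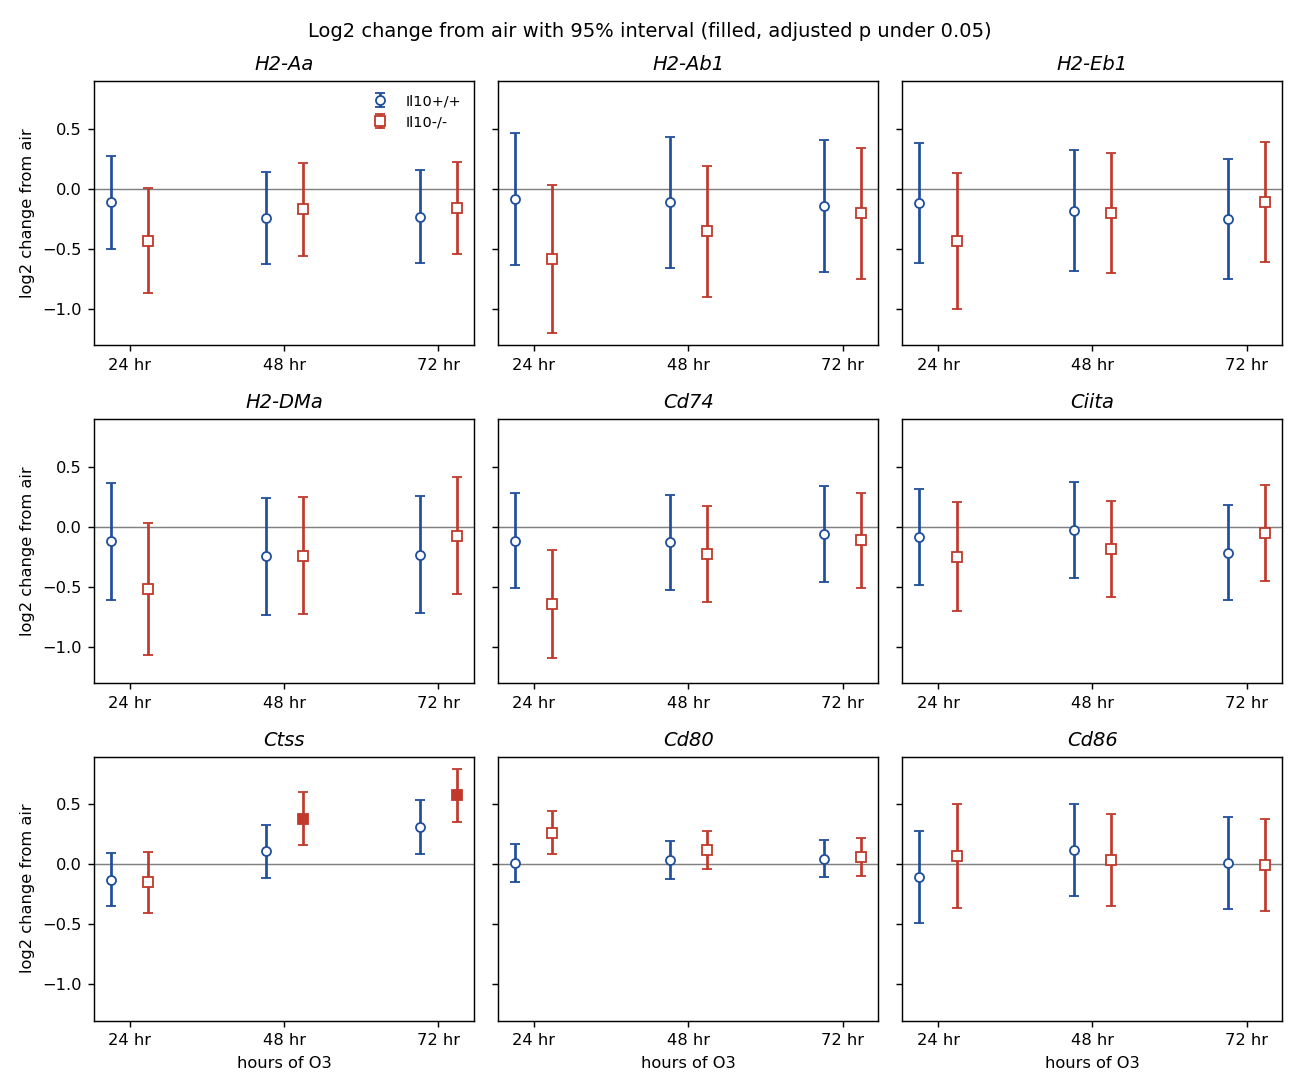
Log2 change from air (vertical axis) after 24, 48 and 72 hr of O3 (horizontal axis) for each member, with 95% intervals from limma, in Il10+/+ (blue circles) and Il10-/- mice (red squares); a filled symbol is past an adjusted p of 0.05. Ctss at 48 and 72 hr in Il10-/- mice is filled, and the 5 class II genes lie below 0 at each time with intervals that reach above 0 except for Cd74 at 24 hr in Il10-/- mice.

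Markers of cells that carry Ctss moved with it in part. Of 10 measured markers of monocytes and interstitial macrophages, 1 passed at 72 hr in Il10-/- mice, F13a1, at 0.90 (limma, adjusted p = 0.0449), and 9 of 10 were above 0, with C1qb, a complement component of macrophages, at 0.64 (limma, adjusted p = 0.0765). Their mean, centred on the 25 arrays, lay between 0.235 and 0.448 at 72 hr in Il10-/- mice and between -0.290 and 0.0626 in their air arrays. In Il10+/+ mice at 72 hr none of the 10 passed and their mean lay between -0.161 and 0.0925, beside -0.0788 to 0.0344 in air. Over the 25 arrays, which share 1 normalization, the mean of these markers correlated with Ctss at r = 0.622 and that of dendritic cell markers at r = 0.572. Alveolar macrophage markers did not follow Ctss (r = -0.056), nor did those of B cells (0.106), T cells (0.118) or neutrophils (-0.042). For alveolar type 2 cells r was 0.171 and for endothelium -0.527. The part of cell numbers in the change of Ctss was not tested, and in whole lung more cells of a type and more RNA per cell cannot be told apart.

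H2-Aa and H2-Ab1, the chains of the I-A molecule, did not pass at any O3 time. In Il10+/+ mice H2-Aa (probe set 1435290_x_at) was at 12.18, 12.24, 12.34 and 12.46 in air, at 12.10, 12.13 and 12.35 after 24 hr of O3, at 11.89, 12.14 and 12.16 after 48 hr and at 11.99, 12.01 and 12.21 after 72 hr. The 48 hr arrays all lay under the air arrays, by a difference of -0.24 (95% interval -0.629 to 0.144; limma, adjusted p = 0.559). H2-Aa and H2-DMa were the 2 of 9 members with O3 arrays below all air arrays at that time, as were 8.63% of all genes, and 0 of 9 members were called, beside 3.71% of all genes. In Il10-/- mice H2-Aa was at 12.08, 12.10, 12.21 and 12.49 in air. It was at 11.39 and 12.19 after 24 hr of O3, at 11.59, 12.03 and 12.53 after 48 hr, and at 11.80, 12.10 and 12.29 after 72 hr, so that each O3 group overlapped with air. The 48 hr group held the highest of the 25 H2-Aa values and, after 24 hr replicate 3, the lowest.

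H2-Ab1 (probe set 1451721_a_at) spread widely within groups, with an SD within groups of 0.376. In air it ranged from 10.66 to 11.57 in Il10+/+ and from 10.80 to 11.53 in Il10-/- mice, and in O3 from 10.70 to 11.23 and from 10.17 to 11.39. Its difference from air in Il10-/- mice at 24 hr was -0.58 (95% interval -1.20 to 0.0363; limma, adjusted p = 0.323). It was -0.075 without replicate 3 of that group and -1.09 without replicate 1, each from 1 remaining array. H2-Aa and H2-Ab1 were each read by further probe sets, which followed the ones used with r = 0.961 for H2-Aa and r = 0.943 and 0.883 for H2-Ab1 over the 25 arrays, and none of these passed at any time. The ending _x_at of the H2-Aa probe set marks probes that may also bind other transcripts.

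H2-Eb1, the beta chain of I-E, was at 11.35, 11.40, 11.65 and 11.66 in Il10+/+ mice in air and at 11.21, 11.21 and 11.36 after 72 hr of O3. In Il10-/- mice it was at 11.29, 11.40, 11.49 and 11.55 in air, at 10.48 and 11.51 after 24 hr, and at 10.64, 11.08 and 11.96 after 48 hr. The 48 hr arrays thus spanned the whole air range and went beyond it at both ends. Its differences from air lay between -0.43 and -0.11 over both genotypes and 3 times, and none passed.

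Cd74, the invariant chain, had the lowest change of the class II genes. It was at 12.58, 12.68, 12.75 and 12.77 in Il10-/- mice in air and at 11.51 and 12.59 after 24 hr of O3. The second of these lay inside the air range and the first more than 1 below it, so the mean difference of -0.64 (95% interval -1.10 to -0.194; limma, unadjusted p = 0.0072, adjusted p = 0.124) rested on replicate 3. Without that array the difference was -0.11, and without replicate 1 it was -1.18, each from 1 remaining array. At 48 hr Cd74 was at 12.09, 12.45 and 12.87, and at 72 hr at 12.30, 12.65 and 12.80, overlapping with air at both times. In Il10+/+ mice Cd74 lay between 12.63 and 12.85 in air and between 12.34 and 12.82 in O3. Over the 3 O3 times it was lower in Il10-/- than in Il10+/+ mice by a difference of -0.27 (95% interval -0.526 to -0.0157; limma, adjusted p = 0.378). This too turned on the 24 hr group: the difference was -0.092 without its replicate 3 and -0.45 without its replicate 1, each leaving 1 array there.

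H2-DMa, the alpha chain of the peptide exchanger H2-DM, was at 9.21, 9.21, 9.24 and 9.38 in Il10+/+ mice in air, at 8.72, 9.14 and 9.18 after 48 hr of O3 and at 8.93, 9.02 and 9.12 after 72 hr. Both O3 groups lay below all air arrays, and at 72 hr H2-DMa was the 1 member of 9 to do so, as 8.83% of all genes did. The differences of -0.25 at 48 hr and -0.23 at 72 hr did not pass (limma, adjusted p = 0.658 and 0.713). The Il10-/- air arrays had H2-DMa between 9.04 and 9.44, and it was at 7.97 and 9.43 after 24 hr, and lay between 8.58 and 9.40 at the later times, with overlap throughout.

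Over the 5 class II genes, both genotypes and 3 times, all 30 differences from air were below 0, between -0.64 and -0.06, and the lowest adjusted p was 0.124 (limma). The comparisons share their air arrays and the 5 genes moved together from array to array, so these are not 30 separate observations. Without Il10-/- O3 24 hr replicate 3, the 24 hr difference in Il10-/- mice was 0.084 for H2-Eb1 and 0.21 for H2-DMa. With all 26 arrays it was 0.053 for H2-Aa, 0.0073 for H2-Ab1, 0.19 for H2-Eb1 and 0.20 for H2-DMa. The 15 differences in Il10-/- mice lay between -0.62 and -0.0025, the last being H2-DMa at 72 hr, without the library labelled Il10-/- air 48 hr replicate 1. Fewer cells that carry class II and less class II RNA per cell cannot be told apart in whole lung. B cell markers moved in the same direction: of 12 measured, none passed, and all 12 were below 0 at each time in Il10+/+ mice and 11, 12 and 11 of 12 at 24, 48 and 72 hr in Il10-/- mice. The median of these markers was lowest at 48 hr in Il10+/+ mice, -0.818 beside -0.026 over all genes, and nearest to 0 at 72 hr in Il10-/- mice, -0.335 beside -0.029. In air the mean of the B cell markers, centred on the arrays used, lay between 0.379 and 0.918 in Il10+/+ mice. It lay between -0.941 and 0.325 in Il10-/- mice, without overlap, though none of the 12 markers passed between genotypes in air. The mean of the 5 class II genes, centred alike, did overlap in air. It lay between 0.0155 and 0.328 in Il10+/+ and between -0.0722 and 0.268 in Il10-/- mice. The part of B cells in the class II values was not tested.

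Ciita (probe set 1421210_at) differed from air by between -0.25 and -0.03 over both genotypes and 3 times, and none passed. It was at 5.09, 5.33, 5.48 and 5.75 in Il10+/+ mice in air and at 5.16, 5.19 and 5.24 after 72 hr of O3, inside the air range. It was at 5.25, 5.42, 5.58 and 5.72 in Il10-/- air and at 5.06, 5.59 and 5.68 after 72 hr. A second Ciita probe set followed it with r = 0.671 and differed from air by between -0.12 and 0.12, so the small shift below air was not seen in both.

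The 5 class II genes moved together across the 25 arrays. For their 10 pairs r lay between 0.795 and 0.950 (median 0.886), and between 0.808 and 0.950 for deviations from the group means, so the shared movement was there within groups. Without the 2 arrays with the lowest class II mean, Il10-/- O3 24 hr replicate 3 and Il10-/- O3 48 hr replicate 2, the pairs had r between 0.620 and 0.892. Ciita followed the 5 genes with r between 0.672 and 0.910, and Ctss with r between 0.184 and 0.409. For deviations from the group means Ciita had r between 0.750 and 0.936 with the 5 genes and Ctss between 0.499 and 0.793. Without the same 2 arrays Ctss had r between -0.158 and 0.040 with them. Cd86 had r between 0.255 and 0.418 and Cd80 between -0.357 and -0.170. These values describe arrays that share 1 normalization and carry no test.

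**Figure D3:**
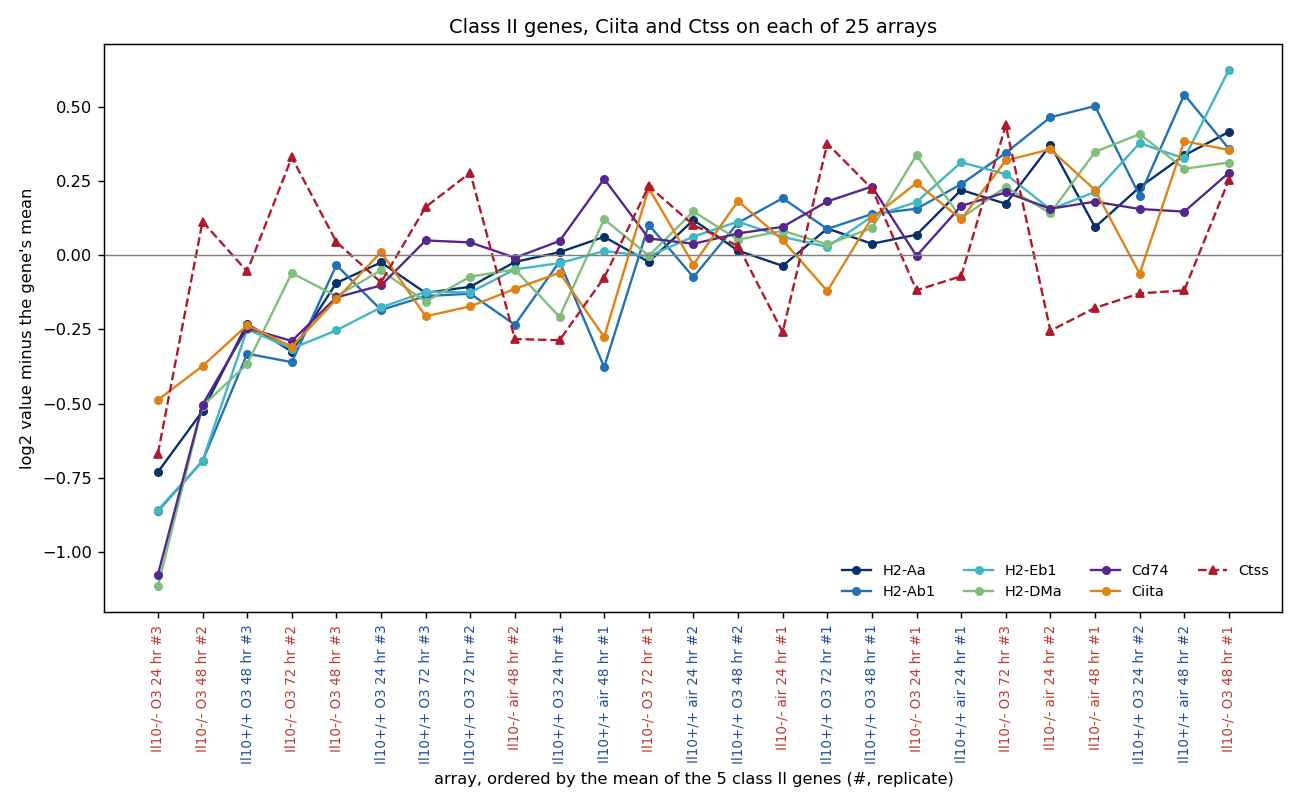
Log2 value of each gene minus its mean over the 25 arrays (vertical axis) for the 5 class II genes, Ciita and Ctss on each array (horizontal axis, ordered by the mean of the 5 class II genes; labels in blue are Il10+/+ and in red Il10-/-). The class II genes and Ciita climb together from Il10-/- O3 24 hr replicate 3, where the mean is -0.928, to Il10-/- O3 48 hr replicate 1, where it is 0.397. Ctss, the dashed line, is also lowest on Il10-/- O3 24 hr replicate 3 and is highest at 72 hr of O3 in Il10-/- mice.

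The mean of the 5 class II genes differed between replicates of 1 group by as much as between groups. It was -0.928 and 0.148 on the 2 arrays of Il10-/- mice at 24 hr of O3 and -0.584, -0.132 and 0.397 at 48 hr. In Il10+/+ mice it stayed between 0.0155 and 0.328 in air and between -0.285 and 0.274 in O3. Lymphocyte markers followed it in part. Over the 25 arrays it correlated with the mean of 14 T cell markers at r = 0.696 and of 12 B cell markers at r = 0.587. For 13 dendritic cell markers r was 0.565 and for 9 alveolar macrophage markers -0.490. Markers of monocytes and interstitial macrophages had r = 0.360, of endothelium 0.296, of neutrophils 0.025 and of alveolar type 2 cells -0.387. On Il10-/- O3 24 hr replicate 3 the means of the T, B and dendritic cell markers were -0.389, -1.05 and -0.528, and on replicate 1 of the same group 0.299, -0.142 and 0.389. On Il10-/- O3 48 hr replicate 1, which held the highest class II mean, the same means were 0.093, -0.639 and 0.269. The part of these cells in the spread of class II values was not tested.

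Outside the members, the genes whose values were most like the class II mean over the 25 arrays were Plbd1 (r = 0.871), Pdgfb (r = 0.868), Csk (r = 0.817) and Spns2 (r = 0.816), followed by Arf5, Rgs10, Olfml3 and Slc38a5 with r between 0.786 and 0.796. Plbd1 is a phospholipase B-like protein, and Pdgfb is a growth factor chain made by endothelium. In all, 4 genes outside the members had r above 0.8.

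The ligands Cd80 and Cd86 were low on this array and did not pass in any comparison. Cd86 (probe set 1420404_at) was at 5.33, 5.61, 5.66 and 5.76 in Il10+/+ mice in air and at 5.23, 5.49, 5.63 and 5.86 in Il10-/- mice. Its differences from air lay between -0.10 and 0.12 (lowest adjusted p = 0.797, limma), with intervals that reached from -0.487 to 0.507. 1 array stood out within its group: at 48 hr of O3 in Il10-/- mice Cd86 was at 5.16, 5.37 and 6.23, the last being replicate 1, which also held the highest class II mean. The other Cd86 probe set did not follow the one used (r = 0.038) and was higher after 72 hr of O3 in Il10-/- mice by a difference of 0.46 (limma, adjusted p = 0.146), so the array gave no single answer for Cd86. The genes most like Cd86 were Slc4a2 (r = 0.753) and Fam102a (r = 0.713).

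Cd80 (probe set 1432826_a_at) ranged from 4.17 to 4.56 over the 25 arrays, the narrowest range of the members. It was at 4.17, 4.25, 4.27 and 4.31 in Il10-/- mice in air and at 4.48 and 4.56 after 24 hr of O3. Both O3 arrays lay above all air arrays, which no other member showed at that time and 11.5% of all genes did, and the difference was 0.26 (95% interval 0.0855 to 0.442; limma, adjusted p = 0.111). The other 3 Cd80 probe sets followed the one used with r = -0.022, 0.162 and 0.059 and differed from air at that time by -0.01, 0.15 and 0.08, so a change of Cd80 was not seen across its probe sets.

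Between the genotypes none of the 9 members passed in air, beside 0.00807% of all genes, or over the 3 O3 times, beside 0.637%. At single O3 times none passed either, beside 0.662% at 24 hr, 0.00807% at 48 hr and 0.0242% at 72 hr. In air the differences between Il10-/- and Il10+/+ mice lay between -0.20 for Ctss and 0.15 for H2-Ab1, and the outer bounds of the 95% intervals were -0.547 and 0.655. Without the library labelled Il10-/- air 48 hr replicate 1 they lay between -0.22 for Ctss and 0.058 for H2-Ab1. Over the 3 O3 times they lay between -0.27 for Cd74 and 0.08 for Cd80. No gene of the array passed the interaction of genotype and exposure, as a mean over O3 times, at a single time or as an F test over all groups (0% of genes), and the lowest unadjusted p of a member in that F test was 0.142, for Ctss. At an unadjusted p under 0.05 that F test held 417 genes and 0 members, and the methods' analysis of variance gave 99 genes and 0 members at an unadjusted p under 0.01. At single times 1 member had an unadjusted p under 0.05 for the interaction, Cd80 at 24 hr, with a larger response in Il10-/- mice by 0.25 (95% interval 0.0148 to 0.49; limma, adjusted p = 0.673), beside 891 genes, 7.19% of all. Between genotypes the members with an unadjusted p under 0.05 numbered 0 in air, 1 over O3 (Cd74), 2 at 24 hr (Cd74 and Cd80) and 0 at 48 and at 72 hr. Of all genes 6.99%, 11.9%, 12.3%, 2.69% and 2.3% did so in the same comparisons. Without the library labelled Il10-/- air 48 hr replicate 1, Ctss at 72 hr in Il10-/- mice was the only call of a member in any comparison with air or between genotypes.

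The other genes of the class II pathway were taken from a list of 22, of which 16 were measured. At 72 hr of O3, 3 of 16 rose in Il10+/+ mice and 2 of 16 in Il10-/- mice, none fell, and the median change was 0.031 and 0.115 beside -0.025 and -0.029 over all genes, of which 3.15% and 5.87% were called. The genes that rose work in the lysosome, where antigen and the invariant chain are cut. Ctsb, Ctsd and Ctsl, lysosomal proteases of the same list, did not pass in either genotype at that time. Ctsz, a lysosomal carboxypeptidase, rose by 0.46 in Il10+/+ mice (SE 0.114; limma, adjusted p = 0.0245) and by 0.61 in Il10-/- mice (SE 0.114; limma, adjusted p = 0.0024). It was at 10.75, 10.79, 10.80 and 10.91 in Il10+/+ air and at 11.21, 11.30 and 11.32 at 72 hr, and at 10.61, 10.73, 10.80 and 10.80 in Il10-/- air and at 11.26, 11.33 and 11.44 at 72 hr, with no overlap in either genotype. Ifi30, the thiol reductase GILT, which was singled out after its values were seen, rose by 0.38 (limma, adjusted p = 0.0152) and 0.41 (limma, adjusted p = 0.0065). Lgmn, asparaginyl endopeptidase, rose by 0.50 in Il10+/+ mice (limma, adjusted p = 0.031) and was at 0.12 in Il10-/- mice (limma, adjusted p = 0.642). The calls of Ctsz and Ifi30 at 72 hr in Il10-/- mice held without the library labelled Il10-/- air 48 hr replicate 1 (limma, adjusted p = 0.0078 and 0.0276).

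**Figure D4:**
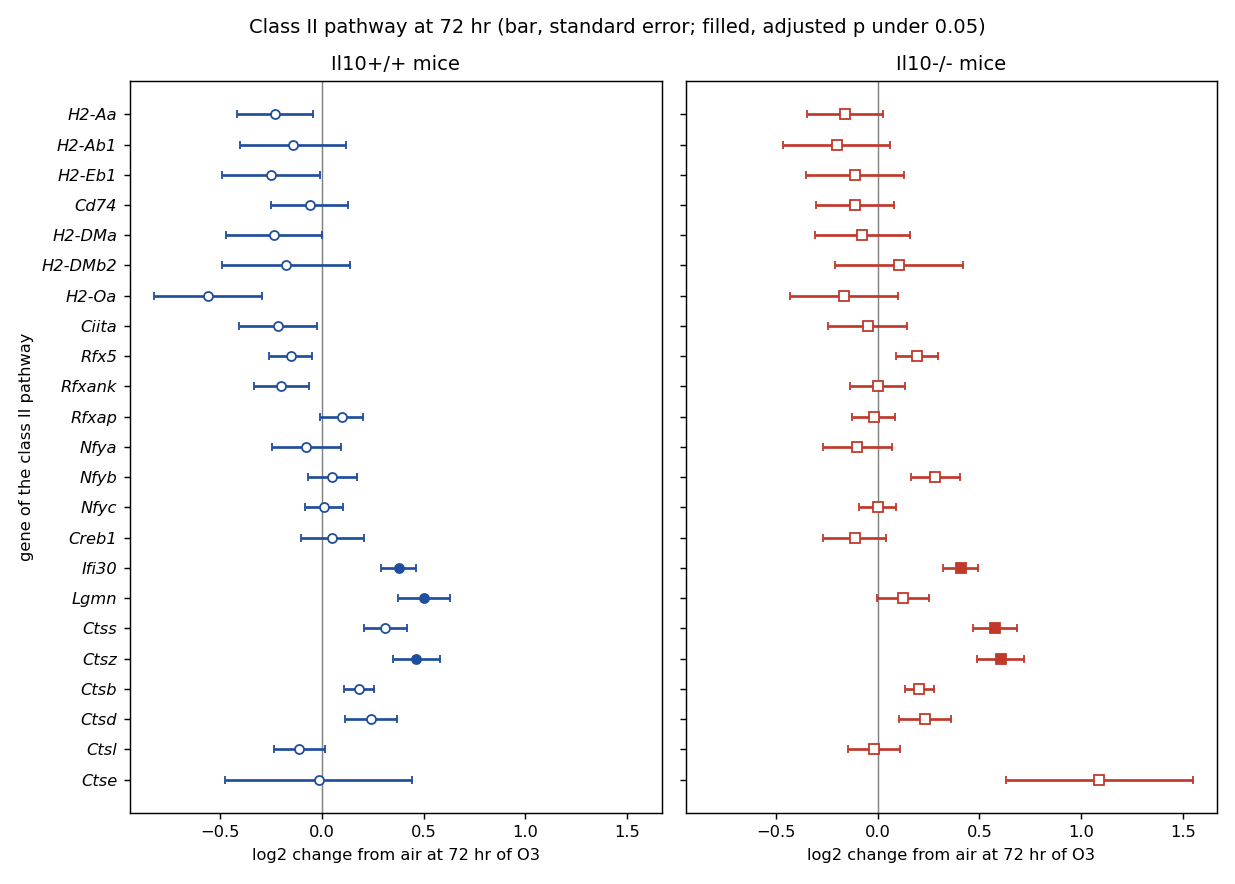
Log2 change from air after 72 hr of O3 (horizontal axis) for 23 genes of the class II pathway (vertical axis) in Il10+/+ (left, blue circles) and Il10-/- mice (right, red squares); bars are standard errors and filled symbols are past an adjusted p of 0.05. H2-Oa lies lowest in Il10+/+ mice, at -0.56, and Ifi30, Lgmn and Ctsz in Il10+/+ and Ifi30, Ctss and Ctsz in Il10-/- mice are filled, all above 0.

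The class II chains and regulators of the same list did not pass at 72 hr. H2-Oa, a chain of H2-O that restrains H2-DM, was at -0.56 in Il10+/+ (limma, adjusted p = 0.316) and at -0.17 in Il10-/- mice. The RFX and NF-Y subunits that bind the X and Y boxes shown above, Rfx5, Rfxank, Rfxap, Nfya, Nfyb and Nfyc, lay between -0.20 and 0.10 in Il10+/+ and between -0.10 and 0.28 in Il10-/- mice. None of 10 class I genes passed in any comparison. Of 14 measured genes of the interferon gamma pathway, which drives Ciita, none passed against air at any time, and at 72 hr their median was -0.093 in Il10+/+ mice and 0.066 in Il10-/- mice.

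Cathepsin E (Ctse), an endosomal aspartic protease, was the 1 gene of the 16 that differed between genotypes, by 2.82 over the 3 O3 times (SE 0.296; limma, adjusted p = 2.06e-05). It lay between 5.10 and 6.33 in Il10+/+ mice and between 7.88 and 9.14 in Il10-/- mice, apart from 5.55 in the library labelled Il10-/- air 48 hr replicate 1. Ctse lies on chromosome 1 at 131638314 to 131675507 and the targeted gene, Il10, at 131019845 to 131024970 (GRCm38.p6), so a difference that came with the targeted allele and one from the loss of interleukin 10 cannot be told apart.

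Of 17 measured costimulatory ligands and receptors other than Cd80 and Cd86, 2 rose over the 3 O3 times in Il10+/+ mice, and in Il10-/- mice 2 rose and 1 fell, beside 3.66% and 7.55% of all genes called. Tnfsf9, the ligand of 4-1BB, rose by 1.23 in Il10+/+ (limma, adjusted p = 3.55e-05) and by 1.28 in Il10-/- mice (SE 0.152; limma, adjusted p = 1.76e-05). It was between 5.68 and 6.21 in Il10+/+ air and at 7.43, 7.55 and 7.64 after 48 hr, and between 5.64 and 6.13 in Il10-/- air and at 6.91, 7.27 and 7.43 after 48 hr, with no overlap. Icam1, an adhesion molecule of endothelium and of antigen-presenting cells, rose by 0.33 in Il10+/+ (limma, adjusted p = 0.0209) and by 0.28 in Il10-/- mice (limma, adjusted p = 0.0379). Icosl, the ligand of Icos, fell by 0.41 in Il10-/- mice (SE 0.110; limma, adjusted p = 0.0249), where it lay between 7.75 and 8.25 in air and, with overlap, between 7.38 and 7.83 in O3. Without the library labelled Il10-/- air 48 hr replicate 1, Tnfsf9 still passed in Il10-/- mice (1.21; limma, adjusted p = 0.000214), while Icam1 at 0.27 and Icosl at -0.35 did not (limma, adjusted p = 0.113 and 0.114).

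Among markers of cells that present antigen, Ccl17, a chemokine of dendritic cells, rose by 1.56 over the 3 O3 times in Il10+/+ mice (SE 0.186; limma, adjusted p = 3.55e-05), and it was the 1 dendritic cell marker of 13 called at each O3 time in both genotypes. Cxcr5, a receptor of B cells, was lower in Il10-/- than in Il10+/+ mice over O3 by a difference of -0.76 (SE 0.162; limma, adjusted p = 0.0337). Marco, a scavenger receptor, was the 1 of 9 alveolar macrophage markers called in Il10-/- mice over O3, at 0.96 (limma, adjusted p = 0.0464), or 0.76 without the library labelled Il10-/- air 48 hr replicate 1 (limma, adjusted p = 0.198). Of these 9 markers 4 were below 0 and the median was 0.129, and at 72 hr the 1 called, Krt79, fell by 0.67 (limma, adjusted p = 0.0319), a call also lost without that library. Of 9 neutrophil markers 5 were higher in Il10-/- than in Il10+/+ mice over O3, with a median difference of 0.813, and 4 of 9, without Mmp8, when that library was left out. S100a9 and S100a8, calcium-binding proteins of granulocytes, were higher by 1.89 and 1.78 (limma, adjusted p = 0.00635 and 0.00661). Against air over O3 in Il10-/- mice, 1 of the 9 passed, Mmp8, neutrophil collagenase, which rose by 1.13 (limma, adjusted p = 0.0041). In the same comparison 1 of 9 alveolar type 2 markers passed, Sftpd, a surfactant protein, which rose by 0.32, and the median of the 9 was 0.059. Of 7 alveolar type 1 markers 1 passed, Cav1, which fell by 0.29, and the median was -0.161. Of 10 endothelial markers 3 passed, and Tie1, Pecam1 and Cldn5 fell by 0.60, 0.41 and 0.24, with a median of -0.276 (limma, adjusted p of these 5 genes between 0.000878 and 0.032). Of these 5, Tie1 alone no longer passed without the library labelled Il10-/- air 48 hr replicate 1 (limma, adjusted p = 0.0824). The part of these cells in the values of the members was not tested.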

How the data were processed

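Expression was measured on 26 Affymetrix mouse genome arrays, with RNA of the left lung according to the study. The authors deposited log2 values, made with RMA (background correction, quantile normalization and summary of probes) and given no version in the sources used here; quantile normalization sets all arrays to about the same distribution, so a shift of all genes would not be seen. Of 22690 probe sets, 20393 had 1 gene symbol in the platform annotation, 691 had several and 1606 were not listed; each of 12394 genes was read from its brightest such probe set.

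Group means of 25 arrays were fitted with limma 3.58.1 in R 4.3.3, with air of 24 and 48 hr pooled, and p-values were adjusted over all genes by Benjamini-Hochberg at 0.05. All comparisons with air within a genotype share its air arrays. An analysis of variance by genotype and exposure, as in the methods, was tried beside it. A letter c ended the source name of 5 arrays and is not explained in the labels. In Il10-/- mice it marked air 24 hr replicate 1, both air 48 hr arrays and O3 24 hr replicate 1. In Il10+/+ mice it marked O3 72 hr replicate 3. No Il10-/- array of 48 or 72 hr of O3 carried it, so it cannot be fully told apart from O3 there. As a covariate it gave 284 genes called at 72 hr in Il10+/+ mice and 1164 in Il10-/- mice, beside 391 and 728 without it. Precision is limited by how many arrays a group held, and p-values measure the spread between these arrays. The fit was tested on simulated data. Members and gene lists, named with up to 3 called genes a list, the left-out array and the motifs were chosen with earlier results of these data known. That naming used calls over the 3 O3 times against air, or between genotypes in air or over O3. Further genes, among them F13a1, C1qb, Ifi30, Krt79 and H2-Oa, were named outside it.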

Additional observations from a re-analysis of the deposited data

Results flagged for a closer look

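The array labelled Il10-/- O3 24 hr replicate 2, which entered no comparison, held a higher value than all air arrays for each of the 9 members. The share of all genes that did so was not counted, so this says nothing particular to the members. It read H2-Aa at 13.24, H2-Ab1 at 12.45, H2-Eb1 at 12.86, H2-DMa at 10.86 and Cd74 at 13.43, where the highest air arrays stood at 12.49, 11.57, 11.66, 9.44 and 12.85. Ciita was at 7.85 there, Ctss at 12.52, Cd80 at 4.89 and Cd86 at 9.16, against 5.75, 11.92, 4.39 and 5.86 on the highest air arrays. On the same array the surfactant genes Sftpc, Sftpb and Sftpa1 were at 6.36, 5.19 and 4.61, and the means of the B cell and T cell markers stood 3.61 and 2.57 above their means over the other 25 arrays. The part of this makeup in the members' values was not tested.

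H2-DMa was at 9.38 on Il10+/+ air 48 hr replicate 2, apart from the other 3 air arrays of that genotype, and the gap was 0.846 of the range of the group. Of 18 groups of 4 air arrays examined, 1 held such a value, and chance gives about 1 in 20.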

How the results depend on the processing

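Among recomputed counts of called members 144 stayed within 1.5 times the count reported and 14 did not, and among single-gene values 451 kept direction and side of the threshold, 13 passed it, 5 no longer did and 21 turned sign, none of those 21 being called. In Il10+/+ mice at 72 hr the count went from 0 to 1 (Ctss) with array weights and, as a choice made after seeing the data, without the Il10-/- O3 24 hr group, and ranged from 0 to 1 when each array was left out. In Il10-/- mice over the 3 times it went from 0 to 1 (Ctss) with the replicate block or with arrays centred on their medians. It stayed at 0 when any array outside the Il10-/- O3 24 hr group was left out. At 24 hr it went to 1 (Cd80) with all 26 arrays and stayed at 0 when any array outside that group was left out. At 48 hr it went from 1 to 0 with all 26 arrays, with air of the same time, and without any 1 of the 7 arrays compared (range 0 to 1), and at 72 hr it went from 1 to 0 with all 26 arrays (limma, adjusted p of Ctss = 0.183). Between genotypes no count changed when an array outside the Il10-/- O3 24 hr group was left out. Without its replicate 1 or 3 that group held 1 array, so no counts are given for comparisons that used it. Values that turned sign with all 26 arrays were, in Il10-/- mice, Ciita over the 3 times at 0.13 and at 24 hr H2-Aa at 0.053, H2-Ab1 at 0.0073, H2-Eb1 at 0.19, H2-DMa at 0.20, Ciita at 0.62 and Ctss at 0.22, and between genotypes over O3 H2-Aa at 0.021, H2-Ab1 at 0.078, H2-Eb1 at 0.059, H2-DMa at 0.12, Ctss at 0.091 and Cd86 at 0.38. When each array was left out, the differences from air at 24 hr ranged from -0.95 to 0.084 for H2-Eb1, -1.24 to 0.21 for H2-DMa, -0.62 to 0.11 for Ciita and -0.42 to 0.13 for Ctss, and those between genotypes over O3 from -0.29 to 0.051 for H2-Ab1, -0.32 to 0.025 for H2-Eb1, -0.36 to 0.12 for H2-DMa and -0.12 to 0.061 for Ctss, the highest each time without Il10-/- O3 24 hr replicate 3. The cause of these changes was not tested. At 72 hr the genes called were 391 in Il10+/+ mice and 728 in those without Il10, which became 17 and 47 with all 26 arrays, and 1613 and 1670 with array weights. Same-numbered arrays of different groups deviated together with r from -0.318 to 0.461 (median 0.097) over 92 pairs, and differently numbered ones with r from -0.448 to 0.536 (median -0.069) over 180; since not every same-numbered pair was over 0.1, the numbers were not taken to pair samples, and the replicate block changed no other count of called members beyond 1.5 times. By the methods' analysis of variance Ctss alone passed for exposure (adjusted p = 0.000384), where 16.2% of all genes had an unadjusted p under 0.01, and no member passed for genotype or interaction. The fit with only the arrays compared was not run for interactions. With 2 to 4 arrays a group, where a 95% interval given holds 0, differences within it could not be told from none.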
